A study of Mus musculus with 15 samples.

Results

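The collagen genes were followed here through the accessibility of the chromatin in and around them. Of 206367 consensus peaks, 1056 were assigned to a collagen gene, that is, to a gene whose symbol has the form Col, number, a, number and whose interval was the nearest protein-coding interval to the peak centre, at most 100 kb away. The annotation holds 44 such genes. Those on the X chromosome, Col4a5 and Col4a6, were left out, and 41 of the 42 autosomal genes had at least 1 peak, Col10a1 being the exception. By chain type, 404 peaks belonged to 11 genes of fibrillar collagens, 189 to 6 genes of network-forming collagens, 160 to 9 genes of FACITs (fibril-associated collagens with interrupted triple helices), 96 to 4 genes of transmembrane collagens and 207 to 11 remaining genes (the beaded-filament, anchoring and multiplexin collagens and 2 unclassed genes). All 1056 peaks passed the filter on low counts and were tested.

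Mouse embryonic fibroblasts (MEFs) of the genotype labelled C57/B16 background were profiled by Omni-ATAC-seq (transposase cuts mark the open chromatin and are sequenced). In 4 groups the cells carried a CRISPRa-VPR-mCherry construct, a CRISPR activator that raises transcription of the gene its guides point to, together with guides to Fosl2, which encodes Fra2, a subunit of the transcription factor AP-1, or with scrambled guides, delivered by lentivirus, and were sorted as mCherry+ and THY1+. The early control and early Fra2 groups were taken on the day labelled 3 (day 4 in the series design, and in the label of early control 3), and the late control and late Fra2 groups on the day labelled 10 (day 11 in the series design). The Ezh2 inhibitor group was given GSK343, which blocks the histone methyltransferase Ezh2, at 4 µM for 3 days and then left without it for a day; whether its cells were transduced or sorted is not stated. Each group held 3 libraries. Separate cultures are not stated for them, and the p-values therefore reflect only how much these libraries varied, possibly for technical reasons. A lower value can come from fewer cells with an open site or from less opening per cell, which cannot be told apart in bulk libraries.

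Collagens are proteins whose chains wind into a triple helix. Fibrillar chains assemble into the tensile fibrils of connective tissue, network chains form sheets such as those of the basement membrane, FACITs bind to fibril surfaces, and transmembrane collagens stay anchored in the cell membrane. Fibroblasts make most of the fibrillar collagen of connective tissue, and the genes Col1a1 and Col1a2 encode the chains of its main type.

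The 250 bases before the transcription start were available in RefSeq for 33 of the 42 autosomal genes (GRCm38.p6, the build also called mm10), in 36 windows. Col1a1, Col2a1, Col4a3, Col5a2, Col9a3, Col12a1, Col14a1, Col22a1 and Col26a1 had no entry. Col1a2 (chr6:4505368-4505617, plus strand) and Col3a1 (chr1:45311288-45311537, plus strand) are shown as fibrillar genes that are close partners of Col1a1, Col6a1 (chr10:76726045-76726294, minus strand) as the collagen gene with an AP-1 match, and Col7a1 (chr9:108953336-108953585, plus strand) because a peak at its start was called in each Fra2 comparison. Each is printed 5′ to 3′ along its gene, and capitals mark a match to the AP-1 site TGANTCA, to CCAAT or to TATAAA on either strand.
Col1a2: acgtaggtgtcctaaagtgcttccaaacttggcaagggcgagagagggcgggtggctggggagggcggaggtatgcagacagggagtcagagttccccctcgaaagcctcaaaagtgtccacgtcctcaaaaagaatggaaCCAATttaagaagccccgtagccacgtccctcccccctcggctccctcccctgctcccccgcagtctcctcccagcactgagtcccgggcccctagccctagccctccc
Col3a1: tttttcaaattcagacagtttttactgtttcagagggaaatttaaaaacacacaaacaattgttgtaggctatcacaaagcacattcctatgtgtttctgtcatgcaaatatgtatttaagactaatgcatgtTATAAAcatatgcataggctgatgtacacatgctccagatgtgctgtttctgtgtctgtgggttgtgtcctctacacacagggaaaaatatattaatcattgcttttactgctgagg
Col6a1: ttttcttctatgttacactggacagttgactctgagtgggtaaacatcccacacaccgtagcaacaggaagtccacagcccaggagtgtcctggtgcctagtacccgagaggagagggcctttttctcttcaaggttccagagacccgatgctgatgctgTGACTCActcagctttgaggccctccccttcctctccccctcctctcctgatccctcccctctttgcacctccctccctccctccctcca
Col7a1: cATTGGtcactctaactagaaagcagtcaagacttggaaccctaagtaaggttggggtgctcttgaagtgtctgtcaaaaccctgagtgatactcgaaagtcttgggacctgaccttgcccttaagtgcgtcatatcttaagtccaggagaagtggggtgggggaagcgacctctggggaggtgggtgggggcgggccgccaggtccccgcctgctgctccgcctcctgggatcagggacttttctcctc
The Col1a2 match is a CCAAT from 109 to 105 bases before the start, the Col3a1 match a TATAAA from 117 to 112 bases before it, the Col6a1 match the AP-1 site TGACTCA from 90 to 84 bases before it, and the Col7a1 match CCAAT on the opposite strand from 249 to 245 bases before it. An AP-1 match was found in 1 of 36 collagen windows (2.78%) and in 2217 of all 32851 windows (6.75%). CCAAT was found in 12 of the 36 (33.3%) against 33.8% of all windows, and TATAAA in 5 of the 36 (13.9%) against 12.4%. These are matches of letters only.

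Reads in peaks numbered 6.75 to 25.3 M (mega) per library, so that 3 reads correspond to 0.117 to 0.42 CPM (counts per M reads in peaks, after scaling). Early control 3 was the shallowest library and stood apart: across peaks its log2 CPM correlated with its 2 partners at 0.783 and 0.789, against 0.896 or more for every other pair of partners. Several collagen counts and calls below are also given without it. The most accessible gene-end peaks of 8 of 8 fibroblast markers were open, at a median of 11.3 CPM (3.05 to 22.4), and their summed level was 88.9 to 115 CPM in early control, 77.0 to 87.1 in early Fra2, 84.3 to 98.1 in late control, 70.7 to 77.1 in late Fra2 and 80.9 to 84.9 CPM in inhibitor libraries. Thy1, the sort marker, was called lower in both Fra2 comparisons (log2 fold change −0.51 ± 0.17 early and −0.61 ± 0.17 late, edgeR adjusted p = 0.032 and 0.0114). Its peak held 15.45, 13.35 and 8.957 CPM in early control and 9.636, 8.394 and 9.224 CPM in early Fra2 libraries. These groups overlapped through early control 3, and a value without that library is not given for Thy1. Markers of other cells had gene-end peaks for 3 of 4 endothelial (3.23 to 5.87 CPM), 2 of 4 macrophage, 3 of 4 epithelial (2.46 to 3.48 CPM), 1 of 2 skeletal muscle (3.07 CPM) and 2 of 2 neuronal genes. Pecam1, Ptprc, Adgre1, Krt8 and Myog had no such peak, whereas those of Csf1r (9.52 CPM), Cd68 (11.5 CPM) and Tubb3 (12.8 CPM) were as open as those of the fibroblast markers. The 2 macrophage markers summed to 14.7 to 20.3 CPM in early control, 19.6 to 24.5 in early Fra2, 22.1 to 24.1 in late control, 23.3 to 24.4 in late Fra2 and 18.6 to 20.8 CPM in inhibitor libraries. Of these genes Csf1r was called higher in early Fra2 libraries (0.62 ± 0.17, edgeR adjusted p = 0.00699) and the endothelial gene Cdh5 in late Fra2 libraries (0.64 ± 0.19, adjusted p = 0.0201). The part of the fibroblast and other markers in the collagen results was not tested. The summed accessibility of Fosl2, the guided gene, was 245 to 264 CPM in early control and 278 to 285 CPM in early Fra2 libraries (log2 fold change 0.15 ± 0.04, edgeR adjusted p = 0.00873), and 240 to 248 against 233 to 249 CPM in the late groups (−0.02 ± 0.04, adjusted p = 0.8). In inhibitor libraries it was 225 to 227 CPM, called lower than early control (−0.17 ± 0.04, edgeR adjusted p = 0.0201). Accessibility of that locus does not measure Fra2 itself.

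Collagen chromatin was about as open as chromatin elsewhere. The median collagen peak had 3.36 CPM over the 15 libraries and the median of all peaks 3.27 CPM. By class the medians were 3.51 CPM for fibrillar, 3.44 for the remaining genes, 3.31 for FACIT, 3.18 for network and 2.80 CPM for transmembrane collagens. Gene bodies held 704 of the peaks, 73 lay within 1 kb of an annotated gene end and 279 lay outside, and the gene-end peaks had a median of 3.77 CPM. Col5a1 carried 159 peaks, followed by Col4a1 with 59, Col4a2 with 54, Col1a2 with 40, Col12a1 with 39 and Col1a1 with 37. The most open collagen peaks were not at starts. A peak in the body of Col24a1 (chr3:145420464-145420965) reached a mean of 33.6 CPM, 1 in the body of Col7a1 (chr9:108977843-108978344) 27.3 CPM and 1 in the body of Col4a2 (chr8:11392999-11393500) 25.3 CPM.

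In Fra2 libraries collagen peaks were called in both directions at both times, and the early shares were close to those of all peaks. A peak or gene was called where the edgeR quasi-likelihood test gave a Benjamini-Hochberg adjusted p under 0.05, with the adjustment over all peaks or all genes. In early Fra2 against early control libraries, 97 collagen peaks (9.19%) were called higher and 47 (4.45%) lower, against 10.1% and 4.92% of all peaks. In late Fra2 against late control libraries, 32 (3.03%) were higher and 46 (4.36%) lower, against 6.44% and 3.54% of all peaks. Both directions occurred within the same gene for 18 genes early and 8 genes late. The late comparison was shifted downward: 38.9% of collagen peaks and 31.7% of fibrillar peaks had a log2 fold change above 0, against 49.3% of all peaks, and the median was −0.10 for collagen and −0.01 for all peaks. Genes with many peaks, such as the fibrillar Col5a1, weigh more in these shares. Of 11 fibrillar genes, 1 was called higher and 1 lower late when its peaks were summed. When the libraries were scaled on gene-end peaks instead, that collagen median turned to 0.13, with all peaks at 0.22, so that its place below all peaks was kept while its sign was not.

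The early counts depended on single libraries. Without early Fra2 1 the early counts were 60 higher and 24 lower, and the lower count was 27 without early control 2 and 31 without early Fra2 2. The late counts were 49 higher and 83 lower without early control 3, a library that enters this comparison only through the shared estimate of spread. They were 17 and 23 without late control 2, 16 and 16 without late control 3, 18 and 16 without late Fra2 1, and 14 and 17 without late Fra2 2, and the lower count was 27 without late Fra2 3. Shares of all peaks in fits that leave out 1 library are not given here or below. Whether collagen counts moved more in these fits than those of other peaks was not tested. Scaling on gene-end peaks, which raised the median of all peaks to 0.17 early, 0.22 late, 0.14 with the inhibitor and 0.03 between the controls, changed the balance: 174 collagen peaks were then higher and 17 lower early, and 107 and 6 late. The share of higher among all called peaks moved with it from 67.2 to 92.5% early and from 64.5 to 94.5% late.

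The plot of called shares by class divides these calls by chain type. Early, 32 fibrillar peaks were higher (7.92%) and 17 lower (4.21%), 9 (4.76%) and 12 (6.35%) network peaks, 16 (10.0%) and 6 (3.75%) FACIT peaks, 10 (10.4%) and 3 (3.13%) transmembrane peaks, and 30 (14.5%) and 9 (4.35%) peaks of the remaining genes, beside 10.1% and 4.92% of all peaks. In the late comparison, beside 6.44% and 3.54% of all peaks, the counts were 12 (2.97%) and 19 (4.70%) for fibrillar, 6 (3.17%) and 10 (5.29%) for network, 4 and 4 (2.50% each) for FACIT, 3 and 3 (3.13% each) for transmembrane and 7 (3.38%) and 10 (4.83%) for the remaining genes. Differences between classes were not tested, and genes with many peaks weigh more in the share of their class. Of the 97 peaks called higher early, 23 (23.7%) were also called higher late, which is 71.9% of the 32 late ones; over all peaks the shares were 35.4% and 55.3%. Of the 47 called lower early, 8 (17.0%) were also called lower late, or 17.4% of the late 46, against 15.8% and 21.9% over all peaks. Whether collagen peaks differ from other peaks in these shares was not tested. The early and late comparisons used different control libraries.

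**Figure D1:**
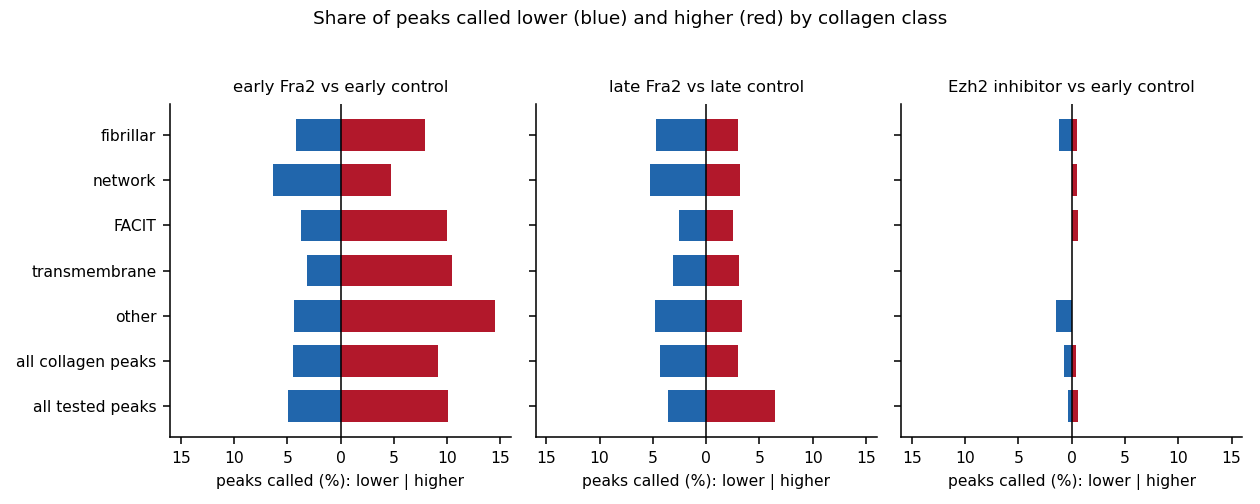
Percentage of peaks called lower (blue, left) and higher (red, right) by edgeR in 3 comparisons, for the 5 collagen classes, all 1056 collagen peaks and all tested peaks. Early Fra2 libraries show 9.19% of collagen peaks higher and 4.45% lower, and the inhibitor bars stay short, at 0.379% higher and 0.758% lower.

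Of 51 collagen peaks within 1 kb of the start of 28 genes, 1 (1.96%) was called higher and 3 (5.88%) lower in early Fra2 libraries by edgeR, against 1.80% and 7.75% of all 24141 peaks as close to a start. In late Fra2 libraries 0 were higher and 5 (9.80%) lower by edgeR, against 0.829% and 9.42%, so that the shares at collagen starts were near those at other starts. DESeq2 also called 0 of them higher late, and 0 were higher at an unadjusted p under 0.05 by edgeR. The 73 gene-end peaks, which include genes without a listed start, had a median log2 fold change of −0.20 early and −0.25 late, beside −0.22 and −0.23 for all gene-end peaks. The start of Col7a1, the anchoring-fibril collagen whose promoter is printed above, had 1 peak called in each direction. The peak on its upstream side (chr9:108952977-108953478) held 9.12, 7.47 and 7.56 CPM in early control and 11.6, 12.7 and 10.5 CPM in early Fra2 libraries. The groups did not overlap, and the log2 fold change was 0.51 ± 0.16 (edgeR adjusted p = 0.024). That call was lost in the fit on the groups compared alone (0.51, adjusted p = 0.115) and without early control 2 (0.44, adjusted p = 0.11), early Fra2 1 (0.51, adjusted p = 0.0623) or early Fra2 2 (0.43, adjusted p = 0.108). Late, this peak held 9.26, 8.63 and 8.53 CPM in control and 8.05, 8.96 and 7.06 CPM in Fra2 libraries, which overlapped (−0.13 ± 0.16, adjusted p = 0.64). The peak on its downstream side (chr9:108953788-108954289) held 4.26, 3.68 and 3.96 CPM in late control and 1.798, 2.88 and 2.82 CPM in late Fra2 libraries, all lower (−0.68 ± 0.23, edgeR adjusted p = 0.04999), a call lost in 13 of 22 alternatives. Early, it was not called (0.20 ± 0.24, adjusted p = 0.617). The start peak of Col6a1, a beaded-filament chain whose promoter carries the AP-1 match (chr10:76725835-76726336), held 12.3, 12.5 and 7.42 CPM in early control, 10.3, 9.19 and 9.08 in early Fra2, 8.74, 11.1 and 10.2 in late control and 8.99, 7.95 and 10.2 CPM in late Fra2 libraries. These groups overlapped at both times and the peak was not called in any comparison.

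Summing all peaks of a gene gave totals for the 41 genes and raised the precision. In early Fra2 libraries 13 collagen totals (31.7%) were called higher and 2 (4.88%) lower, against 14.4% and 12.2% of 18035 genes. The median log2 fold change was 0.10 for collagen and −0.03 for all genes. In late Fra2 libraries 7 (17.1%) were higher and 4 (9.76%) lower, against 13.3% and 10.7%, and both medians were 0.00. Collagen genes held more peaks each than genes at large: 1056 peaks in 41 genes, beside 182923 peaks assigned to a gene and 18035 genes tested. Totals of more peaks can be called more readily, here and in the comparisons of totals below. Genes with like numbers of peaks were not compared. The early lower count was 4 without early control 3. The late higher count was 4 without late control 2, without late control 3 or without late Fra2 1, and the late lower count was 2 without late Fra2 2. Under gene-end scaling 26 totals were higher and 1 lower early, and 19 and 1 late. The genes called in each class are marked in the plot of gene totals.

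**Figure D2:**
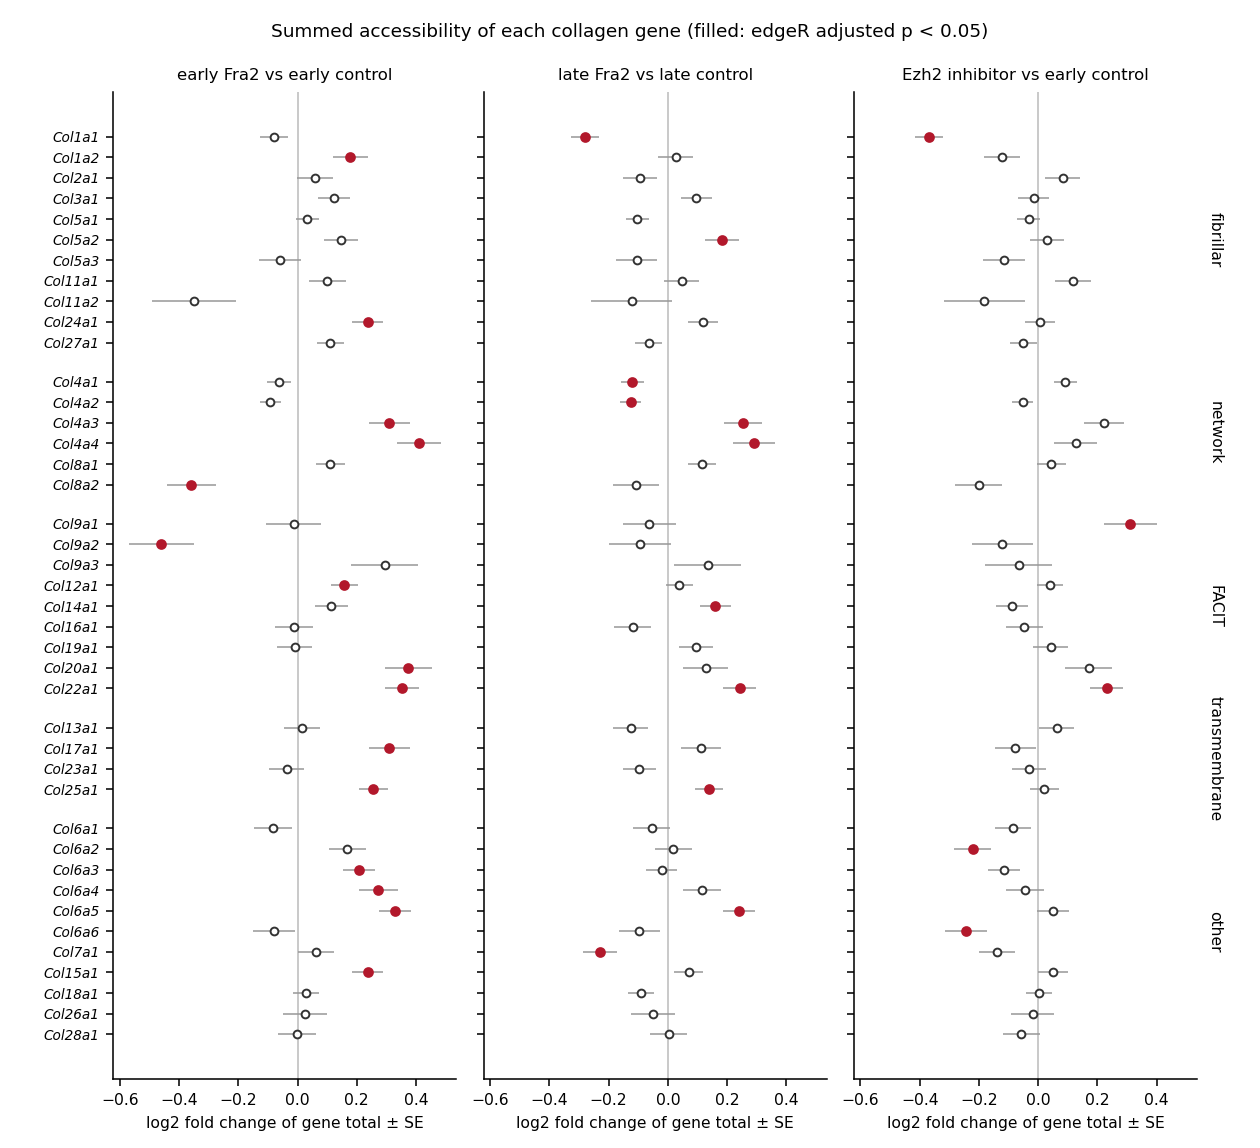
Log2 fold change (points) and standard error (lines) of the summed accessibility of 41 collagen genes, by class, in 3 comparisons; filled points are called by edgeR. Col1a1 sits at −0.28 in late Fra2 and −0.37 in inhibitor libraries, and Col4a3 and Col4a4 lie right of 0 in both Fra2 comparisons while Col4a1 and Col4a2 lie left of it.

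Among fibrillar genes, which encode the chains of the large banded fibrils, Col1a1 was called lower in late Fra2 and inhibitor libraries and Col1a2 was not. The products of both genes join in 1 molecule, type I collagen. The Col1a1 total (chr11:94936224-94953042) was 284, 277 and 313 CPM in late control and 245, 232 and 242 CPM in late Fra2 libraries, a log2 fold change of −0.28 ± 0.05 (edgeR adjusted p = 0.000178). It was 296, 309 and 294 CPM in early control, 303, 276 and 272 CPM in early Fra2 and 231, 231 and 235 CPM in inhibitor libraries. Every late Fra2 library lay below every late control library, and every inhibitor library below every early control library, whereas early Fra2 and early control overlapped. The log2 fold changes were −0.37 ± 0.05 with the inhibitor (edgeR adjusted p = 0.00037) and −0.08 ± 0.05 in early Fra2 libraries (adjusted p = 0.22). The late Fra2 effect minus the early one was −0.20 ± 0.07, which did not pass the test (edgeR adjusted p = 0.277). Over 24 alternatives the late Fra2 value stayed called, between −0.32 and −0.13, as did the inhibitor value, between −0.39 and −0.26. These include a fit without tied peaks, which repeats the main fit because 0 collagen peaks were tied between genes.

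The lower Col1a1 signal was spread along the locus, as the plot of its peaks by distance shows. Of its 37 peaks, 34 had a log2 fold change below 0 in late Fra2 libraries, with a median of −0.35, and 8 were called lower. With the inhibitor 34 were below 0, with a median of −0.43, and 4 were called lower. In early Fra2 libraries 27 were below 0, the median was −0.11 and 1 was called lower. The 8 late calls ran from 8.02 kb before to 10.8 kb after the lower-coordinate end of the gene, with values from −0.74 to −0.45. The 4 inhibitor calls ran from 1.51 kb before to 13.9 kb after it, with values from −0.92 to −0.87. Of all collagen peaks outside Col1a1, 32 of 1019 (3.14%) were higher and 38 (3.73%) lower late, and their median was −0.09. Over all peaks, 6.44% were called higher and 3.54% lower late, 0.341% lower with the inhibitor and 4.92% lower early. A log2 fold change above 0 was held by 49.3% of all peaks late, 49.9% with the inhibitor and 47.3% early.

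**Figure D3:**
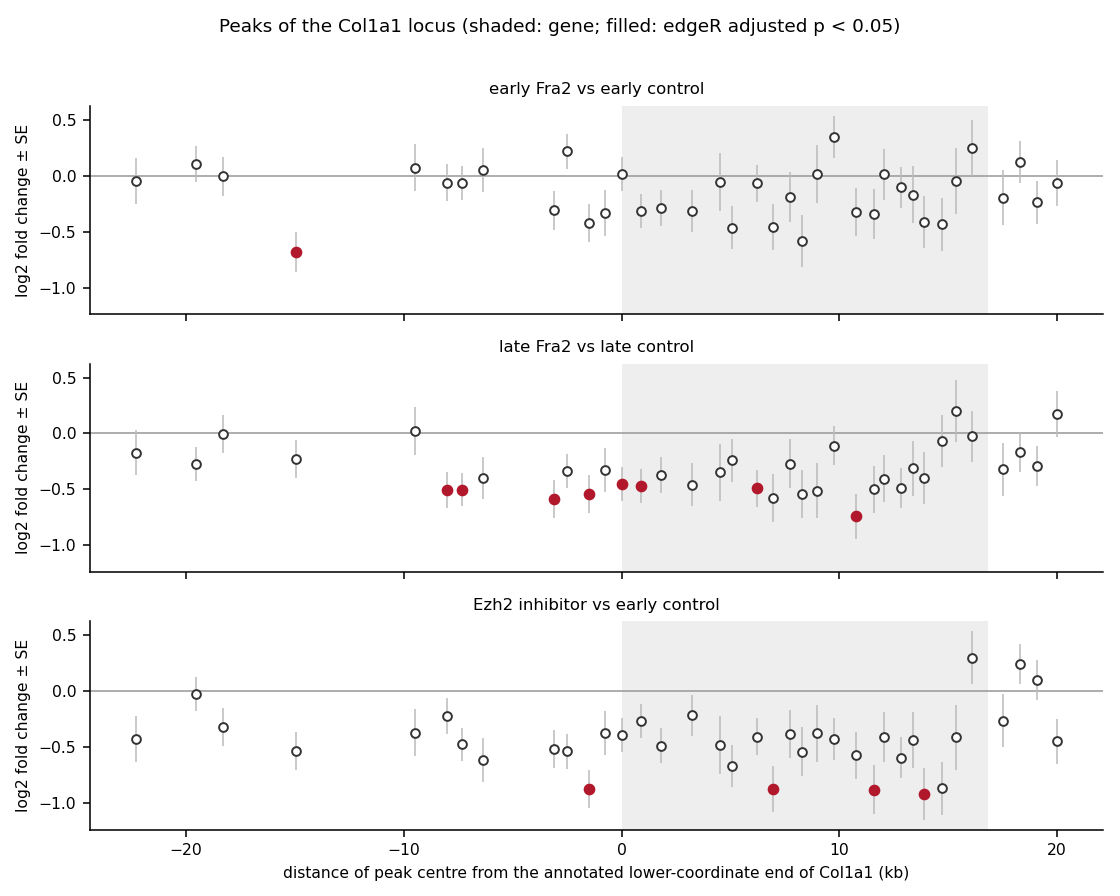
Log2 fold change and standard error of the 37 peaks of Col1a1 against the distance of each peak from the lower-coordinate end of the gene (kb), with the gene shaded and called peaks filled. In late Fra2 and in inhibitor libraries 34 of the 37 points lie below 0.

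The peak at the lower-coordinate end of Col1a1 (chr11:94935979-94936480) held 16.1, 17.8 and 18.2 CPM in late control and 13.6, 11.5 and 12.95 CPM in late Fra2 libraries. The late groups did not overlap, and the log2 fold change was −0.45 ± 0.15 (edgeR adjusted p = 0.0475). That call was close to the threshold: it was lost under gene-end scaling (−0.23, adjusted p = 0.195), under cyclic loess scaling (−0.22, adjusted p = 0.155) and in 10 of the 15 fits that left out 1 library. The peak held 19.8, 21.7 and 15.7 CPM in early control and 15.2, 14.8 and 14.2 CPM in inhibitor libraries, where it was not called (−0.39 ± 0.15, adjusted p = 0.201). A peak 7.31 kb outside the gene (chr11:94928668-94929169) held 23.98, 24.3 and 21.5 CPM in late control and 16.2, 15.8 and 17.3 CPM in late Fra2 libraries. All 3 late Fra2 libraries were lower, at a log2 fold change of −0.50 ± 0.15 (edgeR adjusted p = 0.022). That call was lost under gene-end scaling (−0.28, adjusted p = 0.0895), under cyclic loess scaling (−0.23, adjusted p = 0.14) and without late control 2, late Fra2 1 or late Fra2 2 (adjusted p = 0.0855, 0.087 and 0.097).

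The Col1a2 total was called higher in early Fra2 libraries and was not called late or with the inhibitor. It (chr6:4505618-4541543) was 201, 219 and 185 CPM in early control, 243, 220.5 and 223 in early Fra2, 206, 192 and 216 in late control, 219, 211 and 196 in late Fra2 and 175, 188 and 196 CPM in inhibitor libraries. Early Fra2 libraries lay just above all early control libraries, and the late groups overlapped. The log2 fold changes were 0.18 ± 0.06 early (edgeR adjusted p = 0.0307), 0.03 ± 0.06 late (adjusted p = 0.783) and −0.12 ± 0.06 with the inhibitor (adjusted p = 0.229). The early call of Col1a2 was lost without early control 1 (0.17, adjusted p = 0.0614), early control 3 (0.13, adjusted p = 0.0532) or early Fra2 1 (0.13, adjusted p = 0.167), under cyclic loess scaling (0.10, adjusted p = 0.215) and in the fit on the groups compared alone (0.19, adjusted p = 0.0832). The late value became a call under gene-end scaling (0.17, adjusted p = 0.021), and the inhibitor value became one without early control 3 (−0.17). Its start peak (chr6:4505342-4505843), which covers the printed CCAAT, held 14.04, 16.8 and 17.9 CPM in late control and 13.8, 12.3 and 9.39 CPM in late Fra2 libraries and missed the threshold (−0.45 ± 0.17, adjusted p = 0.0852).

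The count of Col1a1 reads over Col1a2 reads within a library needs no scaling between libraries. This ratio was chosen after its values were seen. A two-sided exact permutation test gave p = 0.1 for each treated group, the smallest value possible with 3 libraries per group, so it decides nothing. It was 1.49 ± 0.0931 (SD, n = 3) in early control, 1.24 ± 0.0181 in early Fra2, 1.42 ± 0.0399 in late control, 1.15 ± 0.0723 in late Fra2 and 1.25 ± 0.0639 in inhibitor libraries. Each treated group lay below its control group without overlap, by −0.27 early, −0.30 late and −0.25 with the inhibitor on the log2 scale. With peaks within 10 kb of the genes alone, the differences were −0.46, −0.30 and −0.29. The early Fra2 and inhibitor differences share the 3 early control libraries.

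**Figure D4:**
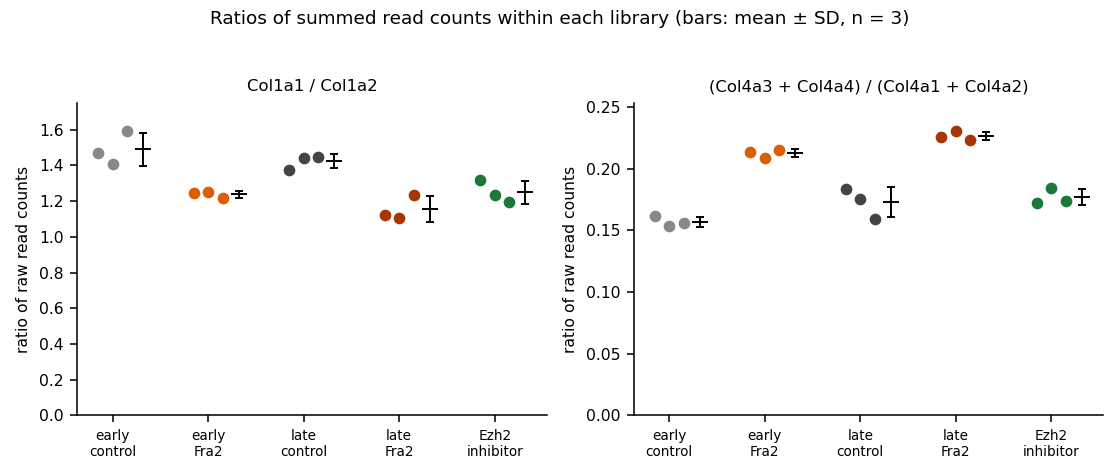
Ratios of summed raw read counts in each library (points) with mean ± SD of 3 libraries per group: Col1a1 over Col1a2 on the left, and Col4a3 plus Col4a4 over Col4a1 plus Col4a2 on the right. Col1a1 over Col1a2 is 1.42 in late control and 1.15 in late Fra2 libraries, and the type IV ratio is 0.157 in early control and 0.213 in early Fra2 libraries.

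The remaining fibrillar genes gave few calls. Col3a1, the chain of type III collagen, which forms fine reticular fibrils, was not called in any comparison, with totals of 102, 104 and 105 CPM in early control and 115, 110.2 and 111 CPM in early Fra2 libraries. The early groups did not overlap. Over 24 alternatives the early log2 fold change lay between 0.08 and 0.28 and was called in 2. Its start peak (chr1:45311255-45311756) held 5.32 to 7.995 CPM in early control and 5.92 to 8.40 CPM in early Fra2 libraries, overlapping ranges. The total of Col24a1, a minor fibrillar collagen, was 184, 173 and 157 CPM in early control and 212, 191 and 205 CPM in early Fra2 libraries, the latter above all controls. Its log2 fold change was 0.24 ± 0.05 (edgeR adjusted p = 0.00169), with 0.12 ± 0.05 late (adjusted p = 0.0876). A peak in the body of Col24a1 (chr3:145363536-145364037) held 1.79, 1.75 and 2.01 CPM in late control and 3.85, 4.64 and 3.68 CPM in late Fra2 libraries and was called higher late (1.13 ± 0.26, edgeR adjusted p = 0.00249) and early (0.87 ± 0.28, adjusted p = 0.0277), the early call being lost without early control 1 or 2 or early Fra2 2 or 3 (0.75 to 0.82) and in the fit on the groups compared alone (adjusted p = 0.105).

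Col2a1, the chain of cartilage collagen, had a body peak (chr15:97992855-97993356) with 7.54, 9.17 and 9.14 CPM in late control and 4.54, 5.12 and 4.85 CPM in late Fra2 libraries. Every late Fra2 library was lower, at a log2 fold change of −0.84 ± 0.16 (edgeR adjusted p = 0.000401); early, the value was −0.35 ± 0.16 (adjusted p = 0.128). A peak 9.52 kb outside Col5a2, which encodes a chain of type V collagen, the regulator of fibril diameter (chr1:45512556-45513057), held 1.02, 1.016 and 1.4 CPM in early control and 3.37, 3.198 and 3.24 CPM in early Fra2 libraries, well apart (1.56 ± 0.35, edgeR adjusted p = 0.00099). The total of Col5a2 was called higher in late Fra2 libraries (0.18 ± 0.06, edgeR adjusted p = 0.0212), but not without late control 2 (0.13, adjusted p = 0.142) or late Fra2 1 (0.15, adjusted p = 0.113). Col5a1, its partner chain and the gene with the most peaks, had totals of 776, 777 and 781 CPM in late control and 718, 727 and 729 CPM in late Fra2 libraries (−0.10 ± 0.04, adjusted p = 0.0531), groups that did not overlap but missed the threshold.

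In late Fra2 libraries 2 network genes were called higher, Col4a3 and Col4a4, and 2 lower, Col4a1 and Col4a2. Col4a1 and Col4a2 encode the chains of the common basement membrane collagen and lie head to head on chromosome 8, and Col4a3 and Col4a4 encode chains of the specialised membranes of kidney glomerulus and lung and are neighbours on chromosome 1. The Col4a4 total (chr1:82448419-82587034) was 42.6, 43.7 and 42.7 CPM in early control, 58.9, 52.2 and 59.95 in early Fra2, 50.7, 48.03 and 44.2 in late control and 57.8, 60.2 and 56.5 CPM in late Fra2 libraries. At both times the Fra2 libraries lay above their controls without overlap, at log2 fold changes of 0.41 ± 0.07 (edgeR adjusted p = 0.000266) and 0.29 ± 0.07 (adjusted p = 0.00395). The Col4a3 total (chr1:82586921-82722059) was 55.7, 51.8 and 50.6, 64.2, 66.999 and 66.2, 68.5, 64.2 and 57.8 and 76.6, 74.2 and 75.7 CPM in the same order of groups. These too were apart at both times, at 0.31 ± 0.07 (edgeR adjusted p = 0.00202) and 0.25 ± 0.07 (adjusted p = 0.00647); the late call was lost without late control 3 (0.19, adjusted p = 0.0655).

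The Col4a1 total (chr8:11198423-11312889) was 306, 293 and 296 CPM in late control and 274, 273 and 278 CPM in late Fra2 libraries, and the Col4a2 total (chr8:11312805-11449287) 343, 347 and 343 and 322, 310.2 and 313 CPM. Neither pair of groups overlapped, with log2 fold changes of −0.12 ± 0.04 (edgeR adjusted p = 0.0268) and −0.13 ± 0.04 (adjusted p = 0.0121). Gene-end scaling turned these to 0.03 and 0.02, neither called. The Col4a1 call was also lost without late control 1 (−0.10, adjusted p = 0.0812), late control 3 (−0.13, adjusted p = 0.0588), late Fra2 1 (−0.12, adjusted p = 0.0805) or late Fra2 2 (−0.11, adjusted p = 0.0887) and with peaks within 10 kb alone (−0.08, adjusted p = 0.159), and the Col4a2 call without late Fra2 2 (−0.11, adjusted p = 0.0632). The early values were −0.06 ± 0.04 and −0.09 ± 0.04, neither called (adjusted p = 0.253 and 0.0587).

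The reads of Col4a3 plus Col4a4 over those of Col4a1 plus Col4a2 within a library were again compared after the values were seen. The exact permutation test again gave only its smallest possible value, p = 0.1, for each treated group. This ratio came to 0.157 ± 0.00410 (SD, n = 3) in early control, 0.213 ± 0.00325 in early Fra2, 0.173 ± 0.0122 in late control, 0.227 ± 0.00361 in late Fra2 and 0.177 ± 0.00667 in inhibitor libraries. The Fra2 groups lay above their controls without overlap, by 0.44 early and 0.39 late on the log2 scale, and the inhibitor group lay 0.17 above early control. With peaks within 10 kb alone the differences were 0.45, 0.39 and 0.18.

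Single network peaks moved further than these totals. A peak in the body of Col4a4 (chr1:82536471-82536972) held 5.42, 5.08 and 3.08 CPM in early control and 12.3, 9.99 and 11.2 CPM in early Fra2 libraries, and 8.52, 8.93 and 6.58 against 12.4, 11.3 and 6.999 CPM late. The early groups were apart and the late ones overlapped, at 1.24 ± 0.19 (edgeR adjusted p = 2.19e-06) and 0.37 ± 0.17 (adjusted p = 0.15). A second Col4a4 body peak (chr1:82525987-82526488) was called higher at both times, by 0.79 ± 0.21 and 0.83 ± 0.18 (edgeR adjusted p = 0.00557 and 0.00159), early not without early Fra2 1 (0.68, adjusted p = 0.0559). A peak 42.3 kb outside Col4a1 (chr8:11155852-11156353) held 5.602, 5.85 and 6.58 CPM in late control and 2.14, 2.88 and 2.27 CPM in late Fra2 libraries, and 4.45, 4.79 and 4.06 against 2.71, 2.64 and 3.17 CPM early. Fra2 libraries were lower than every control at both times, by −1.31 ± 0.20 late (edgeR adjusted p = 8.5e-06) and −0.66 ± 0.21 early (adjusted p = 0.0256). The early call was lost under gene-end scaling (−0.46, adjusted p = 0.135), in the fit on the groups compared alone and without early control 1 or 2 or early Fra2 1 or 2 (adjusted p from 0.061 to 0.0945).

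A body peak of the same gene (chr8:11287031-11287532) moved the opposite way. It held 3.81, 3.701 and 2.94 CPM in early control, 7.07, 5.52 and 5.84 in early Fra2, 5.15, 4.59 and 3.96 in late control, 8.35, 7.09 and 6.81 in late Fra2 and 6.11, 6.81 and 6.45 CPM in inhibitor libraries. All 3 treated groups lay above their controls, at 0.80 ± 0.19, 0.71 ± 0.17 and 0.85 ± 0.18 (edgeR adjusted p = 0.00205, 0.00396 and 0.0125). The inhibitor call was lost without early control 2 (0.88, adjusted p = 0.0523), inhibitor 2 (0.81, adjusted p = 0.0592) or inhibitor 3 (0.85, adjusted p = 0.0606) and in the fit on the groups compared alone (adjusted p = 0.0983). Col8a2, a short-chain network collagen, was called lower early in its total (−0.36 ± 0.08, edgeR adjusted p = 0.0025) but not under gene-end scaling (−0.20, adjusted p = 0.0816). Its gene-end peak (chr4:126314343-126314844) fell from 6.71, 6.75 and 5.04 CPM in early control to 2.52, 2.88 and 4.68 CPM in early Fra2 libraries (−0.93 ± 0.20, adjusted p = 0.000736), without overlap.

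Of the FACIT genes, Col22a1, whose product sits at tissue junctions, was called higher in all 3 treated groups. Its total was 114, 106 and 98.9 CPM in early control, 143, 137 and 129 in early Fra2, 111, 103 and 101 in late control, 129, 125 and 119 in late Fra2 and 129, 127 and 121 CPM in inhibitor libraries. Each treated group lay above its control without overlap, at 0.35 ± 0.06, 0.24 ± 0.06 and 0.23 ± 0.06 (edgeR adjusted p = 9.99e-05, 0.00265 and 0.0206). The inhibitor call was lost without early control 2 (0.22, adjusted p = 0.0711) or any 1 inhibitor library (0.21, adjusted p = 0.0776 without the first, 0.23, adjusted p = 0.0788 without the second, 0.26, adjusted p = 0.0623 without the third) and in the fit on the groups compared alone (adjusted p = 0.118). Within its body, a peak at chr15:71863684-71864185 held 1.99, 2.32 and 1.4 CPM in early control and 6.598, 4.72 and 5.12 CPM in early Fra2 libraries (1.49 ± 0.24, edgeR adjusted p = 9.74e-06), far apart.

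Col20a1 rose early, from 37.7, 38.5 and 36.97 CPM in control to 42.7, 51.9 and 53.3 CPM in Fra2 libraries (0.37 ± 0.08, edgeR adjusted p = 0.00136). Col9a2, a chain of the FACIT of cartilage, fell early, from 24.9, 24.04 and 32.3 CPM to 19.4, 17.1 and 21.2 CPM (−0.46 ± 0.11, adjusted p = 0.00334). Neither pair of groups overlapped. The total of Col12a1, which binds type I collagen fibrils, was called higher early (0.16 ± 0.05, edgeR adjusted p = 0.0127), but not without early control 2 (0.14, adjusted p = 0.0546) or early Fra2 1 (0.13, adjusted p = 0.0748), under cyclic loess scaling (0.07, adjusted p = 0.232) or in the fit on the groups compared alone (0.17, adjusted p = 0.0645). The Col12a1 peak with the largest early rise (chr9:79498980-79499481) lay 99.8 kb outside the gene and held 1.72, 1.38 and 1.26 against 4.84, 4.48 and 3.75 CPM, clear of each other (1.54 ± 0.25, adjusted p = 1.08e-05). A body peak of Col14a1, another fibril-surface collagen (chr15:55510936-55511437), held 2.84, 3.27 and 4.34 CPM in early control and 0.854, 1.44 and 1.44 CPM in early Fra2 libraries, all lower (−1.48 ± 0.33, adjusted p = 0.000873).

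Of the 4 transmembrane genes, Col17a1, a hemidesmosome component of epithelia, and Col25a1, known from neurons, were called higher early. The Col17a1 total was 48.6, 53.1 and 45.4 CPM in early control and 62.5, 62.1 and 59.1 CPM in early Fra2 libraries (0.31 ± 0.07, edgeR adjusted p = 0.00218), and that of Col25a1 107, 112 and 113 and 136, 127 and 131 CPM (0.26 ± 0.05, adjusted p = 0.000519). Both were clear of their controls. The late value of Col25a1 was 0.14 ± 0.05 (edgeR adjusted p = 0.036) and was lost without any 1 of late control 1 to 3, late Fra2 1 or late Fra2 2 (0.11 to 0.15) and under cyclic loess scaling (0.12, adjusted p = 0.0665), and that of Col17a1 was 0.11 ± 0.07 (adjusted p = 0.236). Against its total, the start peak of Col25a1 (chr3:130180411-130180912) was lower early, at 7.57, 9.94 and 6.58 CPM in control and 6.36, 4.96 and 3.75 CPM in Fra2 libraries (−0.67 ± 0.18, adjusted p = 0.00731). That call was lost without early control 2 (−0.49, adjusted p = 0.11) or early Fra2 3 (−0.50, adjusted p = 0.0716). A body peak of Col13a1, found at neuromuscular junctions (chr10:61848632-61849133), held 5.53, 4.499 and 3.22 CPM in early control and 2.04, 1.119 and 2.74 CPM in early Fra2 libraries and was lower without overlap (−1.20 ± 0.26, adjusted p = 0.000886).

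Among the remaining genes, the largest early peak change of all collagens was in the body of Col15a1, a basement-membrane multiplexin. That peak (chr4:47274462-47274963) held 2.68, 2.83 and 2.66 CPM in early control, 10.8, 8.63 and 10.3 in early Fra2, 4.41, 3.92 and 5.48 in late control, 8.22, 7.84 and 5.65 in late Fra2 and 4.62, 3.99 and 3.77 CPM in inhibitor libraries. Fra2 libraries were above their controls at both times, far more so early. The log2 fold changes were 1.87 ± 0.19 early (edgeR adjusted p = 2.2e-10) and 0.66 ± 0.17 late (adjusted p = 0.00965), the late call being lost without late control 2, late Fra2 1 or late Fra2 2 (0.55 to 0.61). The late effect minus the early one was −1.20 ± 0.26 (adjusted p = 0.0374), the 1 collagen peak (0.0947%) called lower in that test, against 0.0819% of all peaks. It was lost in 13 of the 15 fits that left out 1 library, with values from −1.31 to −1.05. No collagen peak was called higher by edgeR or by DESeq2, against 0.0116% of all peaks, and 28 were higher at an unadjusted p under 0.05. Of the 41 totals, 0 were called in either direction by edgeR or DESeq2, against 0.0111% higher and 0.061% lower among all genes, with 2 higher and 7 lower at an unadjusted p under 0.05.

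**Figure D5:**
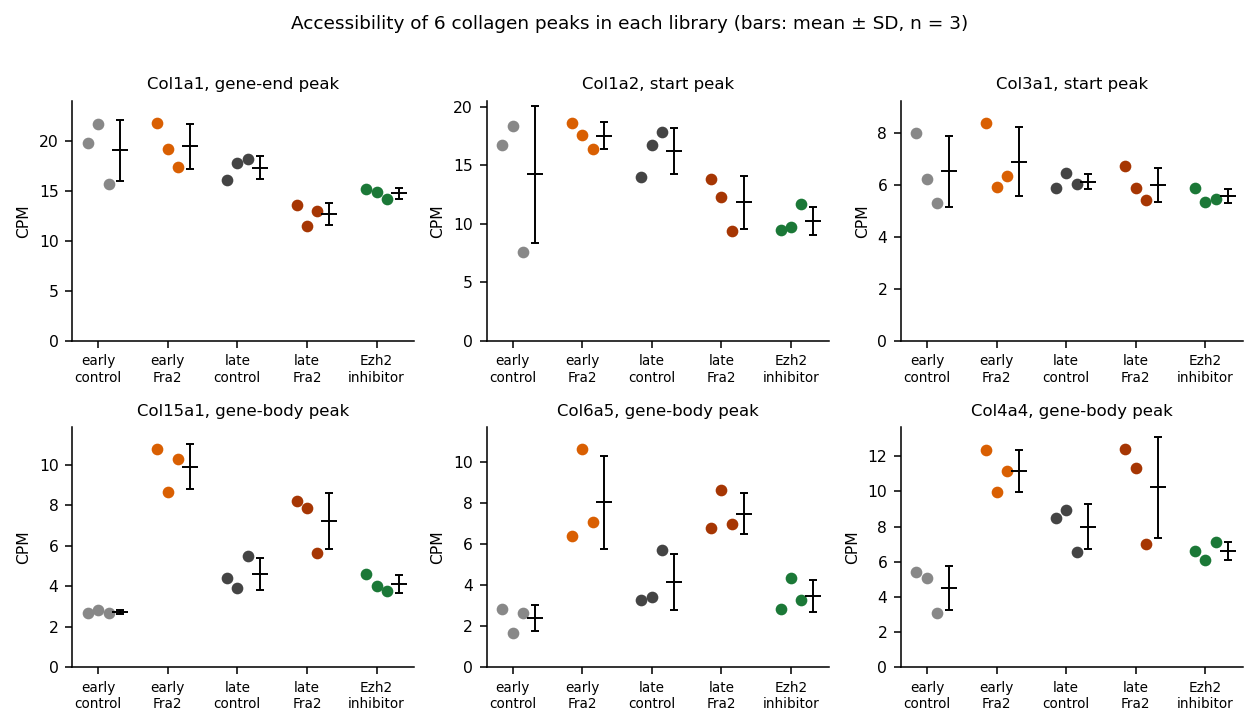
Accessibility (CPM) of 6 collagen peaks in each of the 15 libraries (points), with the mean ± SD of the 3 libraries of each group. The Col15a1 peak stands at 2.66 to 2.83 CPM in early control and 8.63 to 10.8 CPM in early Fra2 libraries, while the Col3a1 start peak overlaps between the groups compared.

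The beaded-filament genes of type VI collagen, which forms microfibrils around cells, were mixed. Col6a5 was 81.7, 75.3 and 78.1 CPM in early control, 99.1, 97.02 and 99.4 in early Fra2, 82.9, 78.1 and 87.1 in late control and 100.03, 98.1 and 94.8 CPM in late Fra2 libraries in its total. Fra2 libraries lay above their controls at both times, at 0.33 ± 0.05 and 0.24 ± 0.05 (edgeR adjusted p = 0.000137 and 0.00194). Its body peak at chr9:105880768-105881269 held 2.84, 1.67 and 2.66 CPM in early control and 6.41, 10.6 and 7.06 CPM in early Fra2 libraries, well separated (1.72 ± 0.23, edgeR adjusted p = 1.13e-07). A peak 41.3 kb outside Col6a2 (chr10:76664684-76665185) was lower early, at 5.21, 7.401 and 6.86 against 2.42, 3.44 and 2.45 CPM (−1.23 ± 0.24, adjusted p = 0.000222). A peak 64.8 kb outside Col6a3 (chr1:90701847-90702348) was called higher at both times, by 1.41 ± 0.35 and 1.48 ± 0.32 (adjusted p = 0.00314 and 0.00156), early not without early control 2 (1.09, adjusted p = 0.0502).

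The Col7a1 total was 75.8, 76.05 and 79.5 CPM in late control and 67.005, 65.5 and 64.8 CPM in late Fra2 libraries, all lower (−0.23 ± 0.06, edgeR adjusted p = 0.00587), but the call was lost under gene-end scaling (−0.08, adjusted p = 0.299). A body peak of Col28a1 (chr6:8174000-8174501) held 6.27, 7.3 and 7.07 CPM in late control and 4.15, 2.45 and 4.24 CPM in late Fra2 libraries and was lower late (−0.93 ± 0.19, edgeR adjusted p = 0.000816) and early (−0.55 ± 0.18, adjusted p = 0.0285), but the early call was lost in 7 of 22 alternatives (−0.54 to −0.34), 4 of which left out early control 1 or 2 or early Fra2 1 or 3. The Col26a1 body peak called lower early (chr5:136781398-136781899, −1.63 ± 0.48, adjusted p = 0.0151) held 0.912, 2.25 and 5.04 CPM in early control and 0.3798, 1.36 and 0.793 CPM in early Fra2 libraries, groups that overlap. That call was lost without early control 3 (−0.95, adjusted p = 0.151) or early Fra2 1 (−1.21, adjusted p = 0.129) and in the fit on the groups compared alone (adjusted p = 0.0517).

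Few collagen elements were called between inhibitor and early control libraries. Early control cells were transduced and sorted, and for the inhibitor cells this is not stated. An effect of the inhibitor therefore cannot be told apart from a difference in transduction or sorting. The titles of the inhibitor libraries also carry higher sample numbers than those of all other libraries. What these numbers stand for is not stated, and a difference that goes with them cannot be told apart either. Against early control, 4 collagen peaks (0.379%) were called higher and 8 (0.758%) lower by edgeR, against 0.552% and 0.341% of all peaks, and 4 of the 8 lower ones belonged to Col1a1. Fibrillar genes held 2 of the higher and 5 of the lower calls, network and FACIT genes 1 higher call each, and the remaining genes 3 lower ones. Without early control 3 the counts were 9 and 41, without early control 2 they were 0 and 3, and without inhibitor 1, 2 or 3 the lower count was 2 and the higher count 2, 2 and 0. The higher count was 7 without early control 1, and the lower count 5 without late control 2, late control 3, late Fra2 2 or late Fra2 3. Of the totals, 2 (4.88%) were higher and 3 (7.32%) lower, against 2.33% and 2.68% of all genes. Without early control 3 the number of lower totals was 6, and without early control 2 the totals called were 0 higher and 1 lower. Gene-end scaling gave 26 higher peaks, 10 higher totals and 1 lower total, and the share of higher among all called peaks went from 61.8 to 93.2%.

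Besides Col1a1, given above, the lower totals were Col6a2 (−0.22 ± 0.06, edgeR adjusted p = 0.0409) and Col6a6 (−0.24 ± 0.07, adjusted p = 0.0426), and the higher ones Col22a1, also above, and Col9a1 (0.31 ± 0.09, adjusted p = 0.0425). The calls of Col6a2, Col6a6 and Col9a1 were each lost in 10 or more of 24 alternatives. A body peak of Col6a6 (chr9:105758312-105758813) held 5.04, 4.86 and 7.42 CPM in early control and 2.29, 3.22 and 2.56 CPM in inhibitor libraries, and 5.005, 5.55 and 5.97 in late control against 2.95, 3.2 and 3.56 CPM in late Fra2 libraries. Both treated groups lay below their controls, at −1.05 ± 0.20 (edgeR adjusted p = 0.00514) and −0.78 ± 0.19 (adjusted p = 0.00636). The inhibitor call was lost without inhibitor 1 (−0.95, adjusted p = 0.0515) and in the fit on the groups compared alone (adjusted p = 0.0848), and the late Fra2 call under gene-end scaling (−0.55, adjusted p = 0.0507). A peak 7.41 kb outside Col5a1 (chr2:28046670-28047171) held 4.35, 3.701 and 2.799 CPM in early control and 7.12, 5.86 and 6.49 CPM in inhibitor libraries, all higher (0.78 ± 0.18, edgeR adjusted p = 0.0206), a call lost without early control 2, inhibitor 1 or inhibitor 3 (adjusted p = 0.0881, 0.11 and 0.0841) or in the fit on the groups compared alone (0.127). In early Fra2 libraries this peak held 7.45, 6.71 and 5.91 CPM and was called higher too (0.84 ± 0.18, adjusted p = 0.000922).

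Between the controls, 29 collagen peaks (2.75%) were called higher and 14 (1.33%) lower in late than in early control libraries, against 2.04% and 1.23% of all peaks. The Col5a1 peak just named was among the higher ones, at 7.62, 8.33 and 7.31 CPM in late control libraries (1.04 ± 0.18, edgeR adjusted p = 0.000399). Early Fra2, the inhibitor and late control were all compared with the same 3 early control libraries. Of the totals, 4 (9.76%) were called higher by edgeR, against 2.38%, namely Col15a1 (0.20 ± 0.05), Col4a1 (0.14 ± 0.04), Col4a3 (0.26 ± 0.07) and Col7a1 (0.28 ± 0.06), with adjusted p = 0.0245, 0.0363, 0.0326 and 0.00922. Leaving out 1 library took the number of higher totals to between 1 and 5, and Col7a1 alone lost its call in none of these fits. By edgeR 0 totals were lower, against 2.15% of all genes, with 3 lower at an unadjusted p under 0.05 and 0 by DESeq2. Without early control 1 or without early control 3, 1 total was lower. The peak counts were 15 higher and 4 lower without early control 2, 8 and 1 without late control 2 and 13 and 5 without late control 3, and the higher count was 19 without late control 1. Fitted on these libraries alone, the model called 2 peaks higher, 2 lower and 0 totals higher.

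The genes that act on collagen were read from a list of 39, all of which had a total. They hydroxylate and fold the chains (11 genes), cleave propeptides (8), cross-link fibrils (5), degrade them (8) or serve as receptors (7). In early Fra2 libraries 8 totals were called higher and 4 lower by edgeR, in late Fra2 libraries 6 and 7, and with the inhibitor 1 and 2. These are 20.5% and 10.3%, 15.4% and 17.9%, and 2.56% and 5.13% of the list, beside 14.4% and 12.2%, 13.3% and 10.7%, and 2.33% and 2.68% of all genes. The collagenase genes Mmp8 and Mmp13 were higher at both times. The Mmp8 total was 13.9, 15.1 and 17.3 CPM in early control and 25.5, 24.2 and 23.9 CPM in early Fra2 libraries, clear of each other, at 0.70 ± 0.11 early and 0.54 ± 0.11 late (edgeR adjusted p = 0.00011 and 0.00135); with peaks within 10 kb alone the late call was lost (0.34, adjusted p = 0.0657). Mmp13 gave 0.43 ± 0.10 and 0.44 ± 0.10 (adjusted p = 0.00401 and 0.00219). The receptor gene Ddr2 gave 0.36 ± 0.06 early (adjusted p = 0.000188). Ddr1, also a receptor gene, was called lower at both times (−0.25 ± 0.05 and −0.21 ± 0.05, edgeR adjusted p = 0.000534 and 0.00197). Mrc2, of the degradation genes, was lower too (−0.26 ± 0.05 and −0.21 ± 0.05, adjusted p = 0.000612 and 0.00363). The Ddr1 and Mrc2 calls each held in 23 of 24 alternatives. Over these the weakest values were −0.09 early and −0.07 late for Ddr1, and −0.10 and −0.06 for Mrc2. The called propeptide genes were Tll1 (0.19 ± 0.06), Adamts3 (0.26 ± 0.08) and Pcolce2 (0.33 ± 0.07), higher early, and Adamts2 (−0.21 ± 0.05) and Pcolce (−0.33 ± 0.11), lower late. Their calls held in 21, 23, 24, 23 and 19 of 24 alternatives, and the weakest Adamts2 value was −0.06. Of the cross-linking genes, Loxl1 was called lower late (−0.20 ± 0.04, edgeR adjusted p = 0.00237). That call held in 23 of 24 alternatives, with a weakest value of −0.05.

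P4hb, a subunit of prolyl hydroxylase, and Serpinh1, the collagen chaperone, were called lower in all 3 treated groups. The P4hb total was 94.4, 94.001 and 90.9 CPM in early control, 74.3, 83.3 and 70.8 in early Fra2, 84.6, 94.6 and 86.7 in late control, 76.02, 73.9 and 75.6 in late Fra2 and 78.2, 71.05 and 74.6 CPM in inhibitor libraries. The log2 fold changes of P4hb were −0.30 ± 0.06, −0.24 ± 0.06 and −0.32 ± 0.06 (edgeR adjusted p = 0.00125, 0.00602 and 0.00638), and those of Serpinh1 −0.19 ± 0.05, −0.25 ± 0.05 and −0.17 ± 0.05 (adjusted p = 0.00735, 0.000812 and 0.0485). Under gene-end scaling the Fra2 calls of both genes were lost, at −0.14, adjusted p = 0.0964, and −0.09, adjusted p = 0.25, for P4hb early and late, and −0.03, adjusted p = 0.675, and −0.10, adjusted p = 0.115, for Serpinh1. The late P4hb call was also lost without late control 2 (−0.19, adjusted p = 0.0576), and the early Serpinh1 call without early control 2 (−0.15, adjusted p = 0.0532). In fits on the groups compared alone the early Serpinh1 call (−0.18, adjusted p = 0.0743) and the inhibitor call of P4hb (−0.32, adjusted p = 0.0836) were lost, and the inhibitor call of Serpinh1 was lost in 15 of 24 alternatives.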

How the data were processed

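Omni-ATAC-seq libraries were analysed from raw read counts per consensus peak, which the authors deposited for 15 libraries; 206366 of the 206367 peaks are 502 bp wide. Peaks were called with MACS2 on mm10, per the submitters' processing notes, without versions, and peak names in the deposited per-library lists, not used further, mention bowtie and dedup. The sources used here do not give the aligner's version, read shift, counting tool or consensus method. Peaks were assigned to RefSeq GRCm38.p6 intervals, which carry no strand, so a gene end is either end within 1 kb, and a start was placed only where RefSeq gives a promoter window. Neighbouring collagen genes may share sites, but each peak was given to its nearest interval, and 0 collagen peaks were tied between genes. A nearest gene need not be the gene a site acts on. CPM values used TMM-scaled library sizes.

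Counts were tested with edgeR 4.0.16 (R 4.3.3; filterByExpr, which removed 18 peaks, and the quasi-likelihood F-test) on all 15 libraries with 1 mean per group, and gene totals likewise. Alternatives were RLE, gene-end TMM and cyclic loess scaling (limma 3.58.1), DESeq2 1.42.0, no filter, a replicate block, only the groups compared, each library left out, and peaks within 10 kb. The 24 alternatives for gene totals also count a fit without collagen peaks tied between genes. As 0 were tied, it repeats the main fit. In counts simulated for early Fra2 against early control, 19799 of 19999 peaks were left unchanged. Recovered were 72% of peaks with a log2 change of 1, 50% with −1, 8% with 0.5 and 16% with −0.5. Of the calls, 6.41% were false. Named items were the 2 largest called peaks per class and direction, 1 per gene, the most open gene-end peaks of 12 genes, called totals, and the called genes of the collagen-processing list with the largest change; those described in words were picked from these, and the peaks of the Col1a1 locus, the start peaks of Col7a1 and Col25a1, the Fosl2 total and the count ratios were added after their values were seen. The collagen members and all lists were chosen with earlier results of these data known.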

Additional observations from a re-analysis of the deposited data

Results flagged for a closer look

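The Col15a1 body peak at chr4:47274462-47274963 differed between the times: the late Fra2 effect minus the early one was −1.20 on the log2 scale by the edgeR interaction test (adjusted p = 0.0374). The peak rose in all 3 early Fra2 libraries against early control and in all 3 late Fra2 libraries against late control, and late control libraries were themselves above early control (0.75 ± 0.21, adjusted p = 0.0313; lost without early control 1 or 2 or late control 1 or 3 and in the fit on those groups alone). The call of the difference between the times did not hold in the fit on the groups compared alone (adjusted p = 0.0856) or in 13 of the 15 fits that left out 1 library.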

How the results depend on the processing

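Counts below are given as higher then lower. Scaling on gene-end peaks gave 174 and 17 collagen peaks early, 107 and 6 late, 26 higher with the inhibitor and 49 higher between the controls; it gave 26 and 1 gene totals early, 19 and 1 late, 10 and 1 with the inhibitor and 9 higher between the controls. Under it the late totals of Col4a1 and Col4a2 reversed, to 0.0256 and 0.0200. Cyclic loess gave 8 and 30 inhibitor peaks, 26 lower peaks between the controls, 1 higher peak for the late minus the early effect and 5 lower early totals, and DESeq2 4 lower early totals. Fits on the groups compared alone gave 54 and 17 early peaks, 91 lower late peaks, 0 and 0 inhibitor peaks, 2 and 2 peaks between the controls and 0 lower peaks for the late minus the early effect, with 0 and 1 inhibitor totals and 0 higher totals between the controls; the cause was not tested. The early Col1a1 over Col1a2 ratio difference was −0.46 with peaks within 10 kb.

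Leaving out 1 library gave 60 to 102 and 24 to 63 peaks early, 14 to 49 and 16 to 83 late, 0 to 9 and 2 to 41 with the inhibitor, 8 to 29 and 1 to 19 between the controls, and 0 to 0 and 0 to 2 for the late minus the early effect. For totals the ranges were 11 to 15 and 2 to 4, 4 to 9 and 2 to 6, 0 to 3 and 1 to 6, 1 to 5 and 0 to 1, and 0 to 0 and 0 to 0. The ratio differences ranged from −0.31 to −0.22, −0.36 to −0.27 and −0.29 to −0.20 for Col1a1 over Col1a2, and from 0.42 to 0.46, 0.34 to 0.44 and 0.14 to 0.19 for type IV.

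Replicate numbers did not clearly pair the libraries: same-numbered libraries' deviations correlated at a median of −0.00608 (−0.192 to 0.262), and 6 of 15 libraries correlated best with their own number. The highest correlations were between early control and early Fra2, at 0.262 for number 1 and 0.232 for number 3, with −0.00847 for number 2. These values do not settle whether the early libraries were paired. With a replicate block, 97 peaks were higher and 51 lower early and 31 and 45 late, and 5 named calls were lost. Early control 3 was both the shallowest library and the least like its partners, and which of these bears on the counts was not tested. Changes of 0.5 on the log2 scale in single peaks were mostly missed in simulated counts. A far smaller share of peaks was changed there than was called early in the data, so the recovered shares need not hold for the data.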
